A study of Mus musculus with 12 samples.

Results

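NRF2, the transcription factor encoded by Nfe2l2, and 9 of its antioxidant target genes (Nqo1, Hmox1, Gclc, Gclm, Gsr, Gsta4, Txnrd1, Srxn1 and Prdx1) were followed across all 12 libraries. These 10 genes were taken by name from the 49315 genes of the count tables, and all 10 were among the 15917 genes with enough counts to be tested. The cells were mouse embryonic fibroblasts (MEFs), connective tissue cells grown out of mouse embryos, and RNA was sequenced after 24 h with a compound that inhibits the growth kinase mTOR or with the solvent alone. The tested groups were rapamycin at 20 ng/ml, Torin1 at 250 nM and RapaLink-1 at 10 nM, and DMSO was their common control, with 3 libraries in each of the 4 groups. Rapamycin binds the protein FKBP12 and, with it, mTOR complex 1. Torin1 competes with ATP at the kinase itself. RapaLink-1 carries rapamycin and a kinase inhibitor on the ends of one linker. No source used here gives a strain, genotype or passage number for the fibroblasts, and none tells whether the 3 libraries per treatment go back to different cultures. The p-values therefore speak of the spread among libraries, which may be technical.

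NRF2 is a leucine zipper protein that pairs with a small MAF protein and binds the antioxidant response element, a short DNA motif near genes for glutathione synthesis, thioredoxin recycling and detoxification. In unstressed cells KEAP1 holds NRF2 on the ubiquitin ligase CUL3-RBX1, which marks it for destruction, and oxidants or electrophiles relieve that hold. NRF2 is therefore regulated largely as a protein, which RNA sequencing does not measure. BACH1, a repressor that also pairs with small MAF proteins, occupies some of the same elements, that of Hmox1 being the best known.

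NRF2 acts through the antioxidant response element, so the stretches upstream of their start sites were searched for its core, TGACNNNGC, on both strands. Start sites of 6 of the 10 genes (Nfe2l2, Nqo1, Gclm, Txnrd1, Srxn1 and Prdx1) were in the table of promoters from RefSeq on GRCm38.p6. Within 250 bases upstream of any of their start sites, 4 of these 6 genes held the core, against 11.5% of the 27025 genes in that table. They are shown here, 5′ to 3′ on the strand of the gene and ending just before the start site, or before the first exonic base of the count tables where that lies further upstream, with the core in capitals (as its reverse complement where it lies on the opposite strand).
Nfe2l2: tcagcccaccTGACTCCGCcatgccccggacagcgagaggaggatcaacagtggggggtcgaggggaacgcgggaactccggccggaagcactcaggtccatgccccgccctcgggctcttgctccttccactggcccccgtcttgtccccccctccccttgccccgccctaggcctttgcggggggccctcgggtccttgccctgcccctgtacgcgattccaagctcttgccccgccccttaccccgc
Gclm: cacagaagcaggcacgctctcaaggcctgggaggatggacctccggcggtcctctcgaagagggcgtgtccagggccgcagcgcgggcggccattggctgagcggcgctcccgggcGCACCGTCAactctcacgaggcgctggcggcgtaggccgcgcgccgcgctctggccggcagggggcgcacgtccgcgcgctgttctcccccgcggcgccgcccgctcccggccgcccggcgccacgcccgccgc
Txnrd1: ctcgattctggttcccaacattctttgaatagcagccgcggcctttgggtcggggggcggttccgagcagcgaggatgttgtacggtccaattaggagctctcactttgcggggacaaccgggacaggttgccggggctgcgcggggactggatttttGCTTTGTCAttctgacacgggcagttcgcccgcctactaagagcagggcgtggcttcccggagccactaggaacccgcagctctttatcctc
Prdx1: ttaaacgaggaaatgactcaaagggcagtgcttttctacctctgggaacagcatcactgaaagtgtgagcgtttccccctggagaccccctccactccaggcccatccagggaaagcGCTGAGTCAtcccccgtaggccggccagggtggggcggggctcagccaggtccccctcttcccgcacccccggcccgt
The Nfe2l2 stretch is chr2:75704664-75704913 on the minus strand, and the core there reads TGACTCCGC on the strand of the gene, 232 to 240 bases upstream. The Gclm stretch is chr3:122245307-122245556 on the plus strand, with TGACGGTGC on the opposite strand, 126 to 134 bases upstream. The Txnrd1 stretch is chr10:82858956-82859205 on the plus strand and belongs to the start site at which the count tables also begin the gene. It held TGACAAAGC on the opposite strand, 84 to 92 bases upstream. The windows of the other Txnrd1 start sites in the table of promoters held no core. The Prdx1 stretch is chr4:116685349-116685543 on the plus strand. It stops at 195 bases, before the first exonic base of the count tables, which lies upstream of the RefSeq start site. It held TGACTCAGC on the opposite strand, 125 to 133 bases upstream of that start site and thus nearer to the printed end. That element also contains TGACTCA, the motif of AP-1 factors, which 5.16% of the genes in the table and 2 of the 6 genes here, Prdx1 and Srxn1, held on either strand. A match is a description of the letters and not a bound site, and no match of the core in the Nqo1 and Srxn1 windows speaks only of these windows.

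Each compound lowered all 9 antioxidant target genes, while Nfe2l2 itself hardly moved. Levels are given as CPM, counts relative to the TMM-scaled total of the library, and the 10 genes had 249 to 22300 counts per library, the fewest for Nqo1. A gene is said to rise or fall at an adjusted p under 0.05 in edgeR's quasi-likelihood test, adjusted by the Benjamini-Hochberg method over all genes tested. With rapamycin 9 of the 10 genes fell, against 32.2% of all genes tested that fell. With Torin1 all 10 fell, against 38.3% of all genes, and with RapaLink-1 all 10 fell, against 37.9%. Falls of at least 1.5-fold were made by 5 of the 10 genes with rapamycin (2.76% of all genes), 8 with Torin1 (16.2%) and 7 with RapaLink-1 (15.6%). None of the 10 rose with rapamycin, Torin1 or RapaLink-1, while 27.5%, 39.8% and 38.7% of all genes tested did. The median log2 fold change of the 10 genes was -0.58 with rapamycin, -1.04 with Torin1 and -1.05 with RapaLink-1, beside medians of 0.00, 0.04 and 0.03 over all genes tested. Of all counts, the 10 genes together took 0.137% to 0.138% in rapamycin libraries. Their share was 0.0958% to 0.0983% in Torin1 libraries and 0.105% to 0.107% in RapaLink-1 libraries, against 0.166% to 0.168% in DMSO libraries. The 3 comparisons share their DMSO libraries, so they are not independent of each other. Fold changes follow the order rapamycin, Torin1, RapaLink-1 wherever 3 are given without names. In such bulk samples fewer cells of a type and less RNA per cell cannot be told apart.

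**Figure D1:**
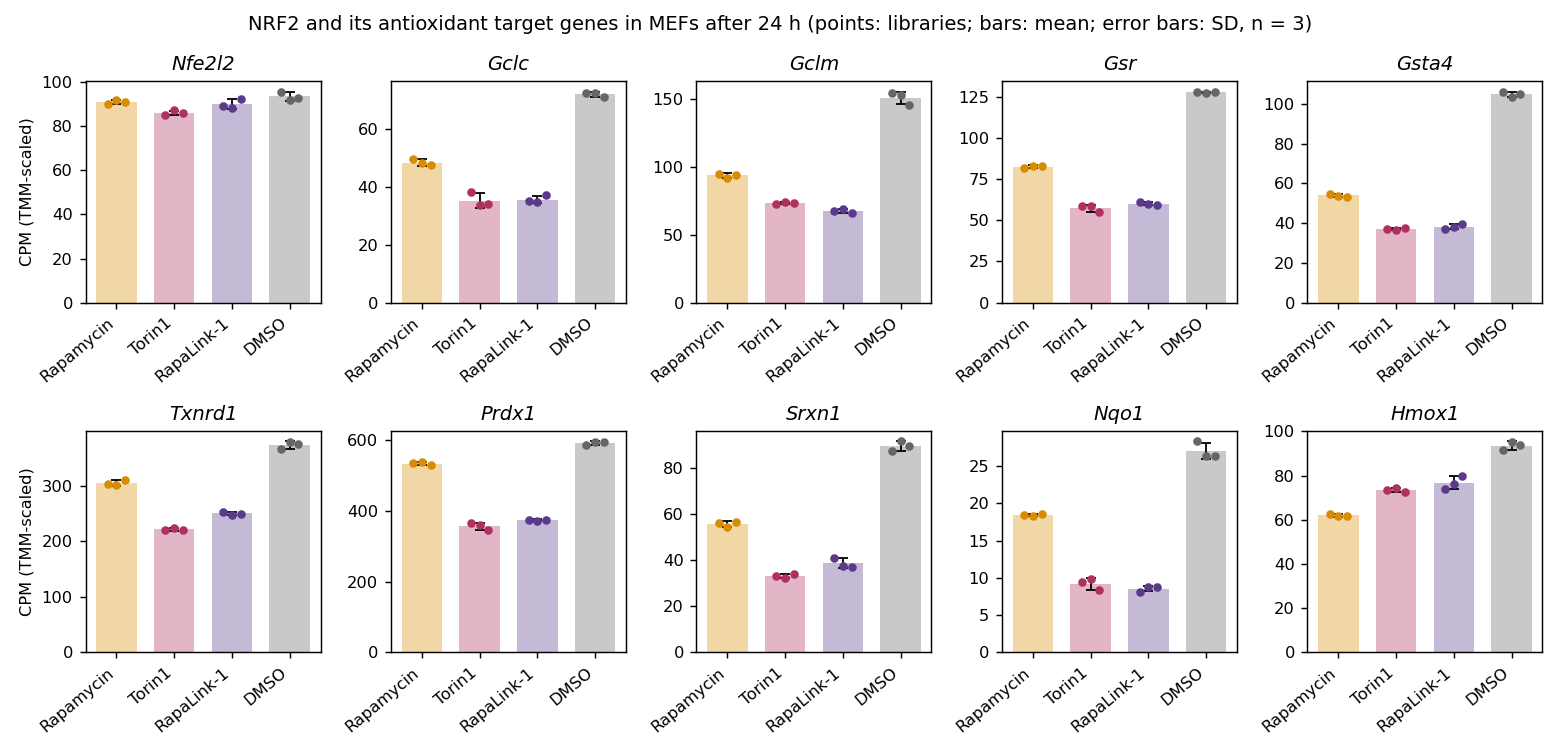
Level of each of the 10 genes in the 12 libraries, in TMM-scaled CPM on linear axes that start at 0; points are libraries, bars the mean and error bars the SD of 3 libraries, in the order rapamycin, Torin1, RapaLink-1 and DMSO. The DMSO bar is the tallest in every panel, the 4 bars of Nfe2l2 are nearly level (86.2 to 93.6 CPM), and Hmox1 is the gene whose rapamycin bar is the lowest of the 4.

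Total counts were 30075870 to 39423703 per library. All 11 fibroblast markers that were looked up (among them Col1a1, Col1a2, Vim and Pdgfrb) were above the count filter, with summed levels of 20270 to 20640 CPM in the rapamycin group, 21960 to 22640 CPM in the Torin1 group and 19100 to 19430 CPM in the RapaLink-1 group, against 21620 to 22020 CPM in the DMSO group. Lum was near the floor, at 0.0327 to 1.42 CPM. Single markers went both ways, with log2 fold changes from -0.96 to 0.63 for rapamycin. They ran from -1.28 to 1.51 for Torin1 and from -2.56 to 1.07 for RapaLink-1. Of 8 macrophage markers 3 were tested, with summed levels of 2.52 to 3.93 CPM for rapamycin, 4.44 to 4.51 CPM for Torin1 and 3.95 to 4.39 CPM for RapaLink-1, against 3.22 to 3.52 CPM for DMSO, and the pan-leukocyte gene Ptprc had 6 counts in all 12 libraries. Endothelial markers (1 of 6 tested, Kdr) had sums of 1.18 to 1.62 CPM for rapamycin, 2.35 to 2.51 CPM for Torin1 and 2.65 to 2.93 CPM for RapaLink-1, against 0.814 to 1.59 CPM for DMSO, and Kdr rose by 1.26 with Torin1 and 1.52 with RapaLink-1 on the log2 scale. Sums of the epithelial (3 of 6 tested), skeletal muscle (2 of 6) and pluripotent cell (1 of 5) lists stayed between 0.446 and 1.60 CPM in every library. At these low levels 1 epithelial gene rose by 3.97 with Torin1 and 2.41 with RapaLink-1 on the log2 scale. A skeletal muscle gene rose by 1.15 with RapaLink-1, and the tested pluripotent cell gene rose by 0.91, 0.63 and 0.72. Neural markers (3 of 6 tested) had sums of 75.7 to 83.7 CPM for rapamycin, 90.4 to 94.9 CPM for Torin1 and 80.2 to 82.9 CPM for RapaLink-1, against 91.9 to 95.8 CPM for DMSO. Map2, at 61.4 to 84.9 CPM, made up most of these sums. The lowest log2 fold change of a neural marker was -0.51, -2.15 and -2.25, and the highest 0.64, 1.38 and 1.34. The part of such RNA in the results was not tested.

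Nfe2l2 encodes NRF2 itself and lies on chromosome 2 (GRCm38, 75675513 to 75704641, minus strand). Its level was 90.0, 92.1 and 90.8 CPM in the 3 rapamycin libraries, 85.2, 87.2 and 86.1 CPM with Torin1 and 89.1, 88.2 and 92.6 CPM with RapaLink-1, against 95.7, 92.1 and 92.9 CPM with DMSO. The Torin1 libraries lay below all DMSO libraries, those of rapamycin lay below them only by hundredths of a CPM at the nearest pair, and 1 RapaLink-1 library lay within the DMSO range. Torin1 lowered it by a log2 fold change of -0.12 ± 0.03 (standard error, adjusted p = 1.79e-05). RapaLink-1 lowered it by -0.06 ± 0.03 (adjusted p = 0.0398), and rapamycin left it at -0.04 ± 0.03 (adjusted p = 0.155), with a 95% interval of -0.09 to 0.01. These small values sat near the middle of all genes, where 44.2%, 40.6% and 44.8% of genes had a fold change at or below that of Nfe2l2 with rapamycin, Torin1 and RapaLink-1. Upper-quartile scaling shifted the median fold change of all genes by 0.06 for rapamycin, 0.13 for Torin1 and 0.14 for RapaLink-1, and under it the sign of Nfe2l2 turned to 0.02 with rapamycin, 0.01 with Torin1 and 0.08 with RapaLink-1. The direction of Nfe2l2 therefore depends on the scaling.

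Gclc and Gclm encode the catalytic and the modifier subunit of glutamate-cysteine ligase, the enzyme that makes the first and rate-limiting step of glutathione synthesis. Gclm was at 95.3, 92.0 and 94.3 CPM with rapamycin, at 72.6, 74.1 and 73.8 CPM with Torin1 and at 67.8, 69.1 and 66.5 CPM with RapaLink-1, against 154.5, 153.1 and 146.2 CPM with DMSO. The 4 groups of libraries did not overlap. Gclm fell by a log2 fold change of -0.69 ± 0.02 with rapamycin, -1.04 ± 0.03 with Torin1 and -1.16 ± 0.03 with RapaLink-1. Gclc was at 47.3 to 49.6 CPM with rapamycin, 33.5 to 38.1 CPM with Torin1 and 34.6 to 37.0 CPM with RapaLink-1, against 70.8 to 72.4 CPM with DMSO. It fell by -0.57 ± 0.03, -1.04 ± 0.03 and -1.01 ± 0.03. Gclc was 2.05-fold lower than in DMSO with Torin1 and 2.02-fold lower with RapaLink-1, and Gclm was 2.06-fold and 2.23-fold lower. Of the exonic bases of Gclm 4.71% overlap an antisense gene, and no strand setting of the counting is stated, so a small part of its reads may belong there.

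Gsr, glutathione reductase, returns oxidised glutathione to its reduced form at the cost of NADPH. Its level was 81.8, 82.9 and 83.1 CPM with rapamycin, 58.4, 58.5 and 54.7 CPM with Torin1 and 60.8, 60.1 and 59.4 CPM with RapaLink-1, against 128.0, 127.2 and 127.7 CPM with DMSO. It fell by -0.63 ± 0.03, -1.16 ± 0.03 and -1.09 ± 0.03. Gsta4 encodes an alpha-class glutathione transferase that joins glutathione to aldehydes from lipid peroxidation. In the rapamycin libraries it was at 54.9, 53.5 and 53.4 CPM, with Torin1 at 37.3, 36.7 and 37.6 CPM and with RapaLink-1 at 37.2, 38.3 and 39.3 CPM, against 106.2, 103.6 and 104.9 CPM with DMSO. All compound libraries lay at about 55 CPM or lower and no DMSO library lay below 103.6 CPM. Gsta4 made the largest fall of the 10 genes with rapamycin, at -0.96 ± 0.03, and only 109 of the 15917 genes tested (0.685%) had a fold change that low or lower. With Torin1 it was at -1.50 ± 0.03 and with RapaLink-1 at -1.45 ± 0.03, the second largest fall of the 10 genes after Nqo1 in each.

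In the thioredoxin branch, Prdx1 and Txnrd1 fell less than the other target genes with rapamycin, and with Torin1 and RapaLink-1 less than the others except Hmox1. Per kilobase of merged exon, Prdx1 had the highest level of the 10 genes, at 175.1 ± 1.14 CPM per kilobase with rapamycin, 117.0 ± 3.43 with Torin1 and 122.5 ± 0.90 with RapaLink-1, against 194.3 ± 1.54 with DMSO (SD, n = 3). Prdx1 is a peroxiredoxin that reduces hydrogen peroxide in the cytosol. Its level was 533.5, 536.1 and 529.2 CPM with rapamycin, 364.1, 359.9 and 344.3 CPM with Torin1 and 373.4, 369.7 and 375.0 CPM with RapaLink-1, against 585.8, 594.1 and 593.6 CPM with DMSO. The rapamycin libraries lay close below those of DMSO, and those of the other compounds lay far below both. Its log2 fold change was -0.15 ± 0.02 with rapamycin, -0.73 ± 0.02 with Torin1 and -0.67 ± 0.02 with RapaLink-1. Txnrd1, the cytosolic thioredoxin reductase and a selenoprotein, was at 301.6 to 310.4 CPM with rapamycin, 219.9 to 223.7 CPM with Torin1 and 248.2 to 253.1 CPM with RapaLink-1, against 365.6 to 378.8 CPM with DMSO. It fell by -0.29 ± 0.02, -0.75 ± 0.02 and -0.58 ± 0.02, and its 4 groups did not overlap. Srxn1, sulfiredoxin, repairs peroxiredoxins whose active cysteine has been overoxidised. It was at 56.2, 54.3 and 56.6 CPM with rapamycin, at 33.2, 32.4 and 34.1 CPM with Torin1 and at 41.2, 37.5 and 37.3 CPM with RapaLink-1, against 87.5, 91.7 and 89.7 CPM with DMSO. Srxn1 fell by -0.68 ± 0.03 with rapamycin, -1.43 ± 0.03 with Torin1 and -1.22 ± 0.03 with RapaLink-1, which is more than its substrate Prdx1 with each compound.

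Nqo1, a flavoenzyme that reduces quinones straight to hydroquinones and a textbook reporter of NRF2 activity, was the least abundant of the 10 genes per kilobase in all 4 groups. It was at 18.5, 18.3 and 18.6 CPM with rapamycin, at 9.47, 9.84 and 8.33 CPM with Torin1 and at 8.13, 8.83 and 8.76 CPM with RapaLink-1, against 28.3, 26.4 and 26.4 CPM with DMSO. The DMSO libraries lay highest, the rapamycin libraries between, and the libraries of Torin1 and RapaLink-1 overlapped each other. Its log2 fold change was -0.55 ± 0.05 with rapamycin, -1.56 ± 0.06 with Torin1 and -1.65 ± 0.06 with RapaLink-1. With Torin1 and RapaLink-1 this was the largest fall of the 10 genes, a level 2.95-fold and 3.15-fold below DMSO, and 1.64% and 1.16% of all genes had a fold change that low or lower.

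Hmox1, haem oxygenase 1, which splits haem into biliverdin, carbon monoxide and iron, followed another order than the rest. It was at 62.8, 61.7 and 61.5 CPM with rapamycin, at 73.3, 74.2 and 72.4 CPM with Torin1 and at 74.1, 76.2 and 79.9 CPM with RapaLink-1, against 91.5, 95.4 and 94.0 CPM with DMSO. Rapamycin gave the lowest 3 libraries, without overlap with those of any other group. Its log2 fold change was -0.59 ± 0.03 with rapamycin, -0.35 ± 0.03 with Torin1 and -0.28 ± 0.03 with RapaLink-1. Hmox1 thus ranked low among all genes with rapamycin, where 3.28% of genes were at its fold change or lower, and stood nearer the middle with Torin1 (27.4%) and RapaLink-1 (30.8%). The 8 target genes other than Hmox1 were lower with Torin1 and with RapaLink-1 than with rapamycin, and the tests of these differences follow after the fold changes against DMSO.

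**Figure D2:**
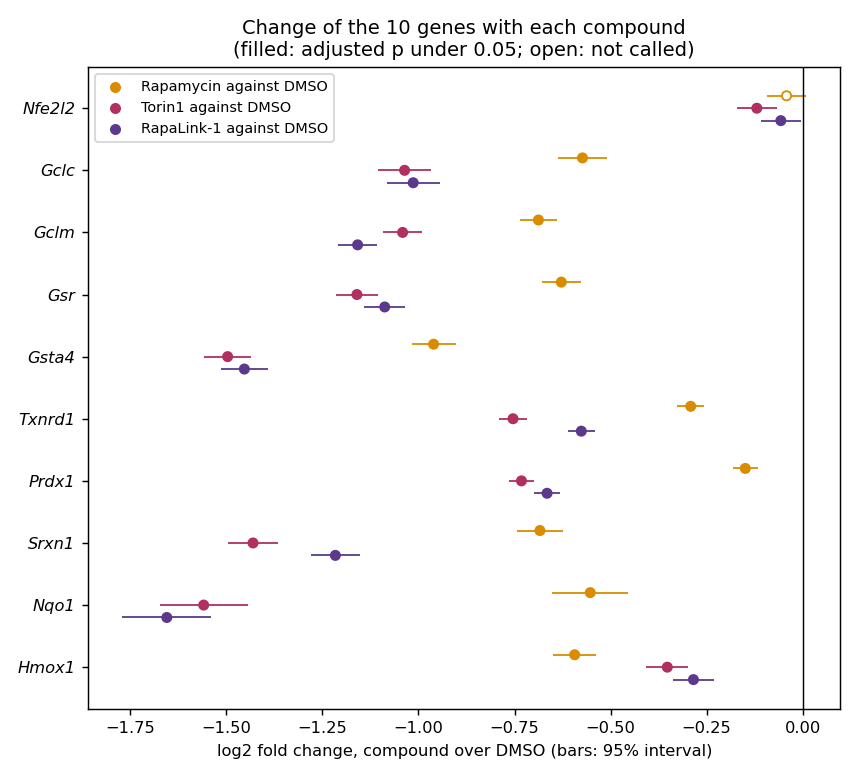
Log2 fold change of each of the 10 genes for rapamycin, Torin1 and RapaLink-1 over DMSO, with 95% intervals from edgeR's quasi-likelihood fit; filled points had an adjusted p under 0.05 and the open one did not. For Nfe2l2 all points lie within 0.12 of 0, the points of Hmox1 run from -0.59 for rapamycin to -0.28 for RapaLink-1, and in the other 8 genes the rapamycin point lies nearest to 0.

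Apart from Nfe2l2, each of the 27 fold changes of a target gene against DMSO passed edgeR's quasi-likelihood test with an adjusted p of at most 7.17e-16, and the compound and DMSO libraries did not overlap in any of them. Lack of overlap was common among all genes, at 63% with rapamycin, 78.5% with Torin1 and 77.6% with RapaLink-1. The DMSO group was the highest of the 4 in all 10 genes. The order DMSO, rapamycin, RapaLink-1, Torin1 from high to low was found for Nfe2l2, Gclc, Gsr, Gsta4, Txnrd1, Srxn1 and Prdx1. For Nfe2l2 no pair of neighbours in that order passed the test, and for Gclc, Gsr and Gsta4 RapaLink-1 against Torin1 did not. For Nqo1 and Gclm the lowest group was RapaLink-1, a step that passed the test for Gclm and not for Nqo1. For Hmox1 the order was DMSO, RapaLink-1, Torin1, rapamycin, of which the middle pair did not pass.

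**Figure D3:**
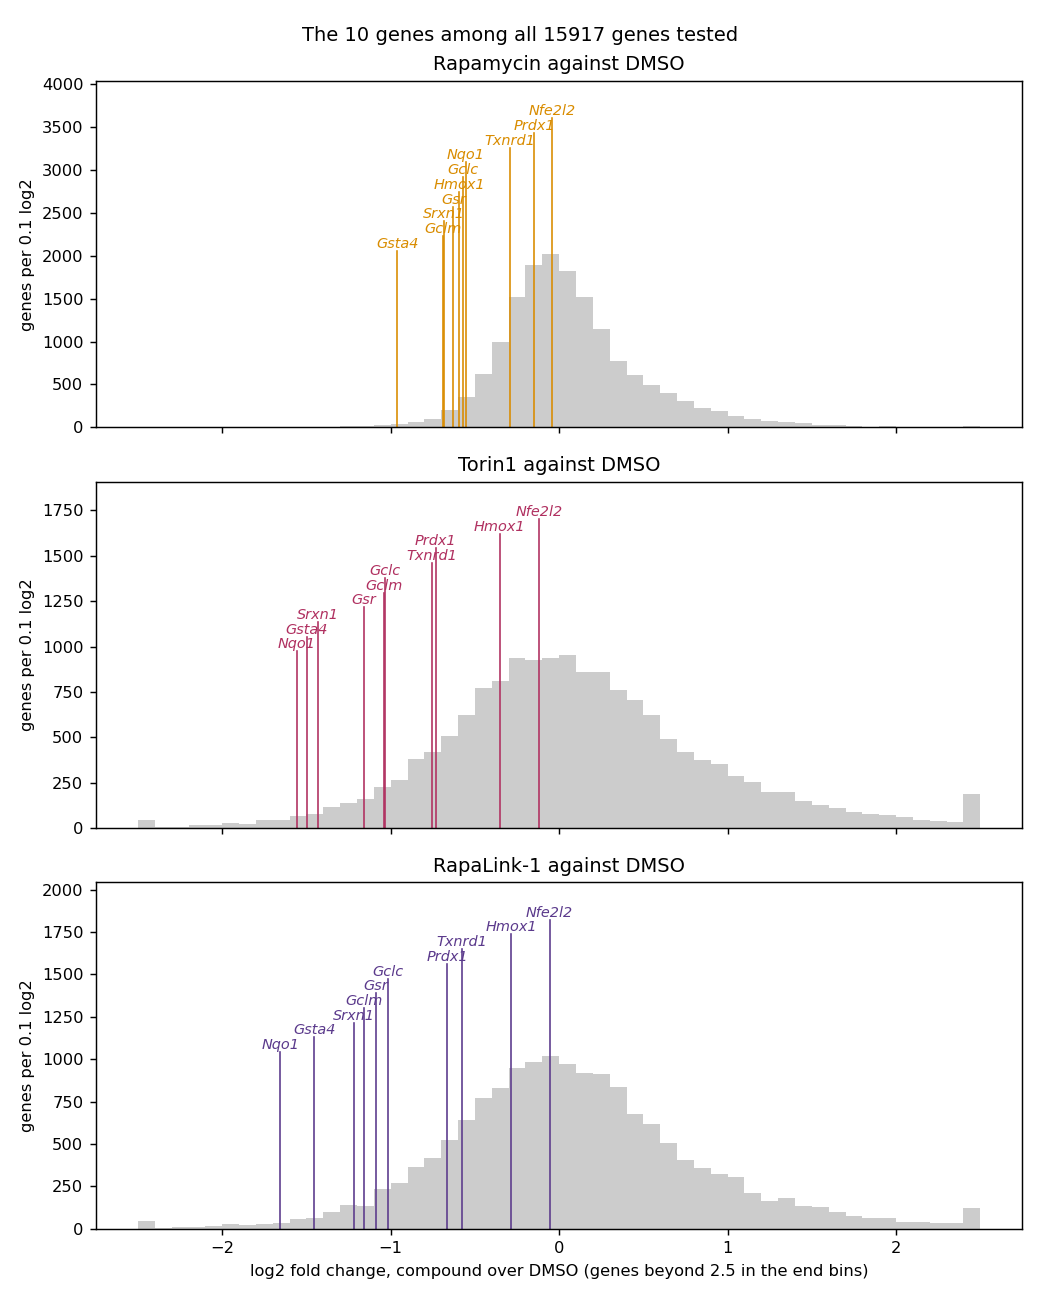
Distribution of the log2 fold change over DMSO of all 15917 genes tested (grey bars, genes per step of 0.1 on a linear axis), with the 10 genes as labelled lines whose height has no meaning; the panels show rapamycin, Torin1 and RapaLink-1 from top to bottom. Nfe2l2 stands near the peak in every panel, Gsta4 is the leftmost line with rapamycin and Nqo1 with the other compounds.

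The compounds were then compared with each other, in 3 pairs. Their doses differ in amount and in unit, so these are comparisons of the doses used. Torin1 against rapamycin had 9 of the 10 genes lower, Nfe2l2 included (33.2% of all genes tested fell), and 1 higher (34.2% rose). Falls of at least 1.5-fold were made by 2 of them (9.21% of all genes), and in all 10 the libraries did not overlap (69.2%). The gene that was higher was Hmox1, at 0.24 ± 0.03 (adjusted p = 2.88e-13 in edgeR's test). Nqo1 had the largest difference, at -1.01 ± 0.06, a level 2.01-fold lower with Torin1 than with rapamycin, followed by Srxn1 at -0.75 ± 0.04 and Prdx1 at -0.58 ± 0.02. Nfe2l2, at -0.08 ± 0.03 (adjusted p = 0.00662), was no longer called under upper-quartile scaling (-0.01) or when genes averaging under 5 CPM were left out (-0.04). RapaLink-1 against rapamycin had 8 genes lower (33% of all genes) and 1 higher (32%), with Hmox1 again the higher one at 0.31 ± 0.03. A fall of at least 1.5-fold was made by 1 gene, Nqo1 (8.4% of all genes), and 9 genes had libraries that did not overlap (67.4%). Nqo1 was at -1.10 ± 0.06, Srxn1 at -0.53 ± 0.04 and Prdx1 at -0.52 ± 0.02, and Nfe2l2 did not pass, at -0.01 with a 95% interval of -0.07 to 0.04.

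RapaLink-1 and Torin1 lay close together. Of the 10 genes 3 were higher with RapaLink-1 (16.7% of all genes tested) and 1 was lower (16.4%). None differed by 1.5-fold, beside 1.16% of all genes that rose and 2.93% that fell by as much, and in 6 of the 10 the libraries did not overlap (42.2%). Srxn1 was higher by 0.21 ± 0.04 (adjusted p = 1.07e-06 in edgeR's test), Txnrd1 by 0.18 ± 0.02 (adjusted p = 1.12e-15) and Prdx1 by 0.07 ± 0.02 (adjusted p = 0.000819). All 3 belong to the thioredoxin branch. In the wider list of 21 other genes of thioredoxins, peroxiredoxins, dismutases and catalase, 2 were higher with RapaLink-1 and 9 were lower (16.7% and 16.4% of all genes). Gclm was lower, at -0.12 ± 0.03 (adjusted p = 0.000367). The 6 genes that did not pass had these 95% intervals of the log2 difference. They were -0.24 to 0.05 for Nqo1, -0.06 to 0.10 for Gclc, -0.03 to 0.12 for Gsta4, 0.01 to 0.12 for Hmox1, 0.01 to 0.13 for Gsr and 0.01 to 0.11 for Nfe2l2. The last 3, with adjusted p-values of 0.0554, 0.0568 and 0.058 in edgeR's test, stood at the threshold and passed it under some alternatives: with upper-quartile scaling or DESeq2 size factors 6 genes were higher with RapaLink-1.

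Among the genes that control NRF2, some moved far more than Nfe2l2 and others as little or less. Of 18 listed genes 17 were tested. With rapamycin 4 rose and 8 fell (27.5% and 32.2% of all genes), with Torin1 7 rose and 9 fell (39.8% and 38.3%), and with RapaLink-1 7 rose and 7 fell (38.7% and 37.9%), so that their counts were near those of all genes. The 3 parts of the ligase that removes NRF2 all fell with each compound. Keap1, its oxidant sensor, was at 83.2 to 87.1 CPM with rapamycin, 57.4 to 61.6 CPM with Torin1 and 65.7 to 66.6 CPM with RapaLink-1, against 95.8 to 97.2 CPM with DMSO. Its log2 fold change was -0.18 ± 0.03, -0.71 ± 0.03 and -0.55 ± 0.03, and an antisense gene covers 10.9% of its exonic bases, which leaves it uncertain. The scaffold Cul3 was at -0.34 ± 0.02, -0.54 ± 0.02 and -0.52 ± 0.02, and the RING subunit Rbx1 at -0.11 ± 0.02, -0.63 ± 0.03 and -0.66 ± 0.03, its call with rapamycin being lost under another scaling (upper quartile).

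Transcripts of the repressor BACH1 and of the small MAF proteins rose. Bach1 was at 59.5 to 65.9 CPM with rapamycin, 80.1 to 83.9 CPM with Torin1 and 83.6 to 85.8 CPM with RapaLink-1, against 56.5 to 57.5 CPM with DMSO. It rose by 0.14 ± 0.03, 0.52 ± 0.03 and 0.58 ± 0.03. All 3 small MAF genes, whose products pair with NRF2 or BACH1, rose as well. Maff made the largest rise of the list, and was at 33.9 to 34.6 CPM with rapamycin, 47.2 to 49.3 CPM with Torin1 and 54.9 to 57.3 CPM with RapaLink-1, against 17.4 to 21.2 CPM with DMSO. Its log2 fold change was 0.81 ± 0.04, 1.30 ± 0.04 and 1.52 ± 0.04. Mafk was at 0.23 ± 0.05, 0.64 ± 0.05 and 0.86 ± 0.04, and Mafg at 0.08 ± 0.02, 0.46 ± 0.02 and 0.40 ± 0.02.

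Sqstm1 encodes p62, a cargo receptor of autophagy that binds KEAP1, and is itself a known NRF2 target. It was at 358.7 to 371.0 CPM with rapamycin, 594.6 to 604.2 CPM with Torin1 and 620.3 to 635.5 CPM with RapaLink-1, against 386.3 to 390.1 CPM with DMSO. It rose by 0.63 ± 0.02 with Torin1 and 0.70 ± 0.02 with RapaLink-1, opposite to the 9 target genes, and fell by -0.09 ± 0.02 with rapamycin, a call not kept under upper-quartile scaling or among genes averaging 5 CPM or more. The difference between Torin1 and rapamycin was 0.72 ± 0.02 (adjusted p = 3.55e-90 in edgeR's test). Sqstm1 shares 17.3% of its exonic bases with an antisense gene and is uncertain. Btrc, a subunit of another ligase that acts on NRF2, was at 0.05 ± 0.04 (not called), 0.19 ± 0.04 and 0.28 ± 0.04. Dpp3, which competes for KEAP1, fell by -0.22 ± 0.02, -0.23 ± 0.02 and -0.20 ± 0.02. Nfe2l3, a relative of Nfe2l2 at 0.515 to 2.52 CPM, was at -0.11 ± 0.19 (not called), 0.48 ± 0.18 and -1.21 ± 0.23. The other 6 tested genes of the list lay between -0.24 and 0.05 with every compound, and the sign of each of them turned under at least 1 alternative.

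**Figure D4:**
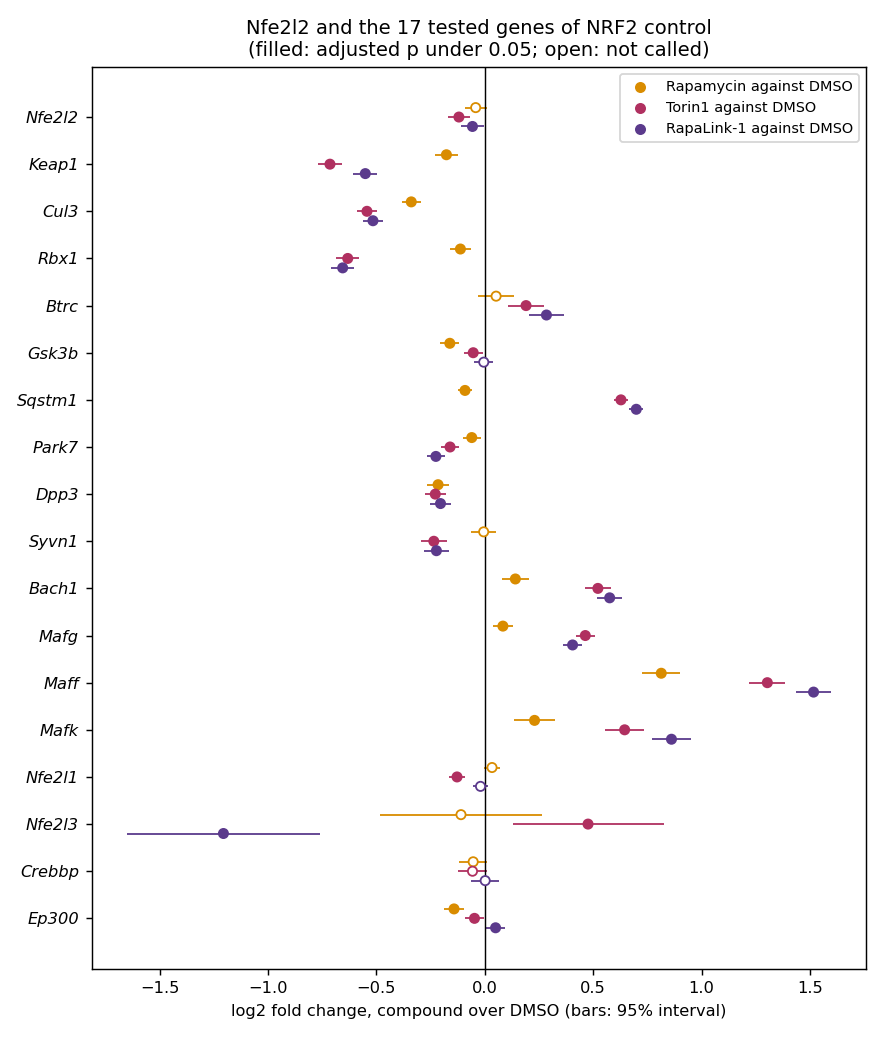
Log2 fold change over DMSO, with 95% intervals, of Nfe2l2 and the 17 tested genes of NRF2 control for rapamycin, Torin1 and RapaLink-1; filled points had an adjusted p under 0.05. Keap1, Cul3 and Rbx1 lie left of 0 with every compound, Bach1, Mafg, Maff and Mafk lie right of it, and Sqstm1 lies right of it with Torin1 and RapaLink-1 only (-0.09 with rapamycin).

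Other genes of the same chemistry were read from 6 further lists, whose 4 most abundant tested genes are named whatever their change. The list of NADPH supply covers the reductant that Gsr and Txnrd1 need. Of its 12 genes 9, 10 and 10 fell with rapamycin, Torin1 and RapaLink-1 (32.2%, 38.3% and 37.9% of all genes tested). A rise was made by 1, 1 and 1 (27.5%, 39.8% and 38.7%), and the medians were -0.25, -0.64 and -0.68. The pentose phosphate enzymes Pgd, at -0.46 ± 0.02, -1.26 ± 0.02 and -1.19 ± 0.02, and Tkt, at -0.25 ± 0.02, -0.69 ± 0.02 and -0.73 ± 0.02, were among them, as was the NAD kinase Nadk at -0.22 ± 0.02, -0.47 ± 0.02 and -0.42 ± 0.02. Nnt, a mitochondrial transhydrogenase, was at 0.04 ± 0.02, 0.03 ± 0.02 and 0.06 ± 0.02, of which the last passed the test.

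In the list of thioredoxins, peroxiredoxins, dismutases and catalase (21 genes) 13, 14 and 15 fell (32.2%, 38.3% and 37.9% of all genes). Rises were made by 4, 6 and 6 (27.5%, 39.8% and 38.7%), and the medians were -0.20, -0.53 and -0.53. Thioredoxin itself, Txn1, the substrate of Txnrd1, was at 466.0 to 484.1 CPM with rapamycin, 276.5 to 282.7 CPM with Torin1 and 269.9 to 284.0 CPM with RapaLink-1, against 542.4 to 545.6 CPM with DMSO. It fell by -0.20 ± 0.02, -0.95 ± 0.02 and -0.98 ± 0.02. The copper-zinc dismutase Sod1 fell by -0.21 ± 0.02, -0.24 ± 0.02 and -0.25 ± 0.02. The methionine sulfoxide reductase Msrb3 rose by 0.16 ± 0.02, 0.74 ± 0.02 and 0.29 ± 0.02. Prdx2 was at 0.10 ± 0.02, 0.04 ± 0.02 (not called) and -0.09 ± 0.02, its sign with RapaLink-1 turning under upper-quartile scaling, and 11.5% of its exonic bases are shared with another gene.

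Glutathione genes outside the 10 moved both ways. Of 19 tested genes of glutathione synthesis and use 9, 11 and 12 fell (32.2%, 38.3% and 37.9% of all genes). Rises were made by 5, 7 and 5 (27.5%, 39.8% and 38.7%), and the medians were -0.21, -0.22 and -0.12. Slc3a2, the heavy chain of the cystine importer, fell by -0.49 ± 0.02, -0.82 ± 0.02 and -0.88 ± 0.02, while the glutathione peroxidase Gpx1 rose by 0.26 ± 0.02, 0.19 ± 0.02 and 0.30 ± 0.02. Gpx4, which protects membrane lipids, was at 0.15 ± 0.02, -0.06 ± 0.02 and -0.03 ± 0.02 (not called), and the monothiol glutaredoxin Glrx3 at -0.24 ± 0.03, -0.02 ± 0.03 (not called) and -0.08 ± 0.03. Signs of Gpx4 and Glrx3 with Torin1 and RapaLink-1 turned with upper-quartile scaling. An annotated copy of Gpx4 held 4735 counts over the 12 libraries beside 79851 on the gene, so Gpx4 is uncertain. Of the other glutathione transferases 14 of 21 were tested. Among these 3, 4 and 4 fell (32.2%, 38.3% and 37.9% of all genes) and 6, 5 and 5 rose (27.5%, 39.8% and 38.7%). Their medians were 0.16, 0.08 and 0.05, so that Gsta4 had no counterpart in the median of its family. Gstp1 fell by -0.31 ± 0.03, -0.56 ± 0.03 and -0.59 ± 0.03 and Gstm1 by -0.18 ± 0.03, -0.34 ± 0.03 and -0.64 ± 0.03, while Gsto1 rose by 0.19 ± 0.02, 0.21 ± 0.02 and 0.36 ± 0.02. Gstp1 and Gstm1 have close copies that may share reads, and they are uncertain. Gstcd, a protein with a transferase-like domain, was at -0.12 ± 0.04, -0.37 ± 0.04 and -0.28 ± 0.04.

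Beside Hmox1, haem and iron handling fell in 9, 9 and 10 of 10 genes (32.2%, 38.3% and 37.9% of all genes). It rose in none (27.5%, 39.8% and 38.7%), with medians of -0.23, -0.31 and -0.36. The haem transporter Slc48a1 fell by -0.54 ± 0.02, -0.62 ± 0.03 and -0.81 ± 0.03. Ferritin light chain Ftl1 fell by -0.17 ± 0.02, -0.35 ± 0.02 and -0.31 ± 0.02, and the iron sensor Ireb2 by -0.23 ± 0.02, -0.23 ± 0.02 and -0.30 ± 0.02. The heavy chain Fth1 was at -0.14 ± 0.02, -0.06 ± 0.02 and -0.23 ± 0.02, its sign with Torin1 turning with upper-quartile scaling. Ftl1 and Fth1 are uncertain, since copies may share their reads and 34.6% of the exonic bases of Ftl1 overlap another gene. In the list of quinone, carbonyl and drug detoxification, to which Nqo1 is nearest in role, 24 of 26 genes were tested. Of these 11, 14 and 14 fell (32.2%, 38.3% and 37.9% of all genes) and 10, 8 and 8 rose (27.5%, 39.8% and 38.7%). Their medians were -0.06, -0.18 and -0.12. The esterase Esd fell by -0.70 ± 0.02, -0.82 ± 0.02 and -0.94 ± 0.02. The cytochrome b5 reductase Cyb5r3 was at 0.30 ± 0.02, -0.01 ± 0.02 (not called) and -0.08 ± 0.02 and the aldehyde reductase Akr1a1 at 0.11 ± 0.02, -0.11 ± 0.02 and -0.19 ± 0.02. Under upper-quartile scaling the sign turned for Cyb5r3 with Torin1 and RapaLink-1 and for Akr1a1 with Torin1. Abcc1, an exporter of glutathione conjugates, was at -0.09 ± 0.02 with rapamycin and rose by 0.39 ± 0.02 with Torin1 and 0.20 ± 0.02 with RapaLink-1.

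Genes with the most similar profile were sought among 9155 other named genes that averaged 10 CPM or more, by Pearson's r of log2 CPM over the 12 libraries. The value is a description, as the libraries fall into 4 treatment groups and share their depth and scaling. The closest to Nfe2l2 were Plekha3 (r = 0.925), Slc35a3 (0.925) and Prkca (0.924), and none of the 9155 genes reached 0.95. For Hmox1 it was Wdr55 (0.984), and 43 genes reached 0.95. The other 8 genes had far more company, with 1247 to 1835 genes at 0.95 or above, led by Hmgb1 for Nqo1 (0.998), Mif for Gclc (0.997), Hnrnpk for Gclm (0.998), Cacybp for Gsr (0.999), Eprs for Gsta4 (0.999), Ctnnal1 for Txnrd1 (0.996), Umps for Srxn1 (0.997) and Spc24 for Prdx1 (0.999). Pearson's r does not measure the size of a change. Against DMSO, Eprs was at -0.45, -0.69 and -0.68 beside -0.96, -1.50 and -1.45 for Gsta4. Spc24 was at -0.36, -1.76 and -1.56 beside -0.15, -0.73 and -0.67 for Prdx1.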

How the data were processed

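RNA of 12 mouse embryonic fibroblast libraries was sequenced and grouped by the treatment label into rapamycin, Torin1, RapaLink-1 and DMSO, 3 libraries each. The deposited values were raw whole-number read counts per gene, deposited by the authors with each gene's position and length, per the file headers. The submitters' processing notes list GRCm38 as the build and, as tools, featureCounts, Subread 1.5.2, STAR 2.5.2b, Trimmomatic 0.36 and DESeq2. How strand and multi-mapping reads were treated, and which annotation release was used, is not given in the sources used here.

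Symbols came from GENCODE M21, which held 49056 of 49315 IDs. Positions are those of the count tables. Genes were filtered with filterByExpr by group, scaled with TMM and fitted over all 12 libraries in edgeR 4.0.16 (R 4.3.3) with a robust quasi-likelihood model of group, two-sided. Standard errors were taken as the log2 fold change over the square root of its F statistic. For a single gene, exact permutation of 3 and 3 libraries gives no p below 0.1. The alternatives used upper-quartile or DESeq2 size factors, other filters on low counts, DESeq2 1.42.0, limma-voom (limma 3.58.1), only the 6 libraries compared, a block for the replicate number, and each library left out. The test was tried on simulated counts. Replicates of a group differed by more than sampling noise (chi-square over degrees of freedom 1.33 to 1.99, genes with at least 20 counts).

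The 10 genes, the pathway and marker lists and the tests were chosen with earlier results of these data known. Every tested gene of the control list could be named, the 4 most abundant tested genes of each other list are named, and for similar profiles the closest gene (3 for Nfe2l2).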

Additional observations from a re-analysis of the deposited data

How the results depend on the processing

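Among the 10 genes, 808 of 840 fold changes recomputed under the alternatives kept their direction and their side of the threshold. The exceptions touched 9 of 60 fold changes: Nfe2l2 in all 6 comparisons, and Gclc, Gsr and Hmox1 for RapaLink-1 against Torin1. With upper-quartile scaling 1 of the 10 genes rose with RapaLink-1 against DMSO, and 2 were higher with RapaLink-1 than with rapamycin. For RapaLink-1 against Torin1, 6 genes were higher with DESeq2 size factors and 6 with upper-quartile scaling, and 3 to 6 with each library left out in turn (6 without Torin1 replicate 2, 5 without RapaLink-1 replicate 1 or 2). The sign of Nfe2l2 turned with upper-quartile scaling (0.0206 for rapamycin, 0.007 for Torin1 and 0.0804 for RapaLink-1 against DMSO, 0.0598 for RapaLink-1 against rapamycin). It also turned with only genes averaging 5 CPM or more (0.0159 for rapamycin and 0.0285 for RapaLink-1 against DMSO, 0.0127 for RapaLink-1 against rapamycin). Its fall with RapaLink-1 was no longer called with DESeq2, with only the 6 libraries compared, and without DMSO replicate 1 or RapaLink-1 replicate 1 or 2. Gclc for RapaLink-1 against Torin1, which was not called, ranged from -0.0028 to 0.0857 with each library left out, and Nfe2l3 with rapamycin, not called, from -0.302 to 0.0344. Signs against DMSO also turned with upper-quartile scaling for Akr1a1 (0.0118, Torin1), Prdx2 (0.05, RapaLink-1), Fth1 (0.0634, Torin1), Cyb5r3 (0.121 for Torin1, 0.0593 for RapaLink-1), Glrx3 (0.105 and 0.0587) and Gpx4 (0.0651 and 0.106). With only genes of 5 CPM or more they turned for Fth1 (0.0283), Cyb5r3 (0.0858 and 0.0074), Glrx3 (0.0701 and 0.0068) and Gpx4 (0.03 and 0.0541). The cause of these turns was not tested. The share of rises among all calls was 57.4% under upper-quartile scaling and 46.1% under TMM for rapamycin, and 61.3% and 50.5% for RapaLink-1, against DMSO. No pairing of the libraries by the replicate numbers of the titles was seen. Same-numbered libraries had correlations of their deviations of -0.0391 to 0.0587, and 3 of 12 correlated best with one of their own number. These values do not tell whether same-numbered libraries were handled together. With the replicate block 9, 10 and 10 of the 10 genes fell with rapamycin, Torin1 and RapaLink-1, as without it. Nfe2l3, at about 1 CPM, had standard errors of 0.18 to 0.23, so depth limits what can be read from it.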

Other observations

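A few genes of the further lists moved as far as the 10 genes or farther, and those named here were chosen after their values were seen. The sestrins, stress-induced proteins that restrain mTOR complex 1, fell together. Sesn2, which also senses leucine, was at 8.79 to 9.71 CPM with rapamycin, 3.04 to 3.54 CPM with Torin1 and 3.30 to 3.78 CPM with RapaLink-1, against 16.4 to 17.5 CPM with DMSO, without overlap between compound and DMSO libraries. Its log2 fold change was -0.87 ± 0.07, -2.41 ± 0.08 and -2.29 ± 0.08. Sesn1 was at -0.35 ± 0.04, -1.03 ± 0.04 and -1.03 ± 0.04 and Sesn3 at -0.27 ± 0.03, -0.95 ± 0.03 and -1.05 ± 0.03. Slc7a11, the cystine-glutamate exchanger and a target of both NRF2 and ATF4, was at -0.45 ± 0.05, -1.38 ± 0.06 and -1.04 ± 0.06. Osgin1, another NRF2 target, was at -0.72 ± 0.07, -1.42 ± 0.08 and -1.09 ± 0.08. Other genes of the list that holds Osgin1 went both ways. As given above, 11, 14 and 14 of its 24 tested genes fell, Osgin1 among them, and 10, 8 and 8 rose. Adh7 averaged 14.95, 11.46 and 12.09 CPM against 23.77 CPM with DMSO. Ptgr1 averaged 39.2, 34.2 and 36.9 CPM against 34.4 CPM with DMSO. Abcc3 averaged 2.51, 4.05 and 2.43 CPM against 2.09 CPM.

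Some genes of detoxification set Torin1 apart from RapaLink-1 more than any of the 10 genes did. Ephx1, microsomal epoxide hydrolase, was at 3.23 to 3.83 CPM with Torin1 and 6.10 to 6.76 CPM with RapaLink-1, against 10.4 to 11.4 CPM with DMSO, and RapaLink-1 stood above Torin1 by 0.89 ± 0.10 (adjusted p = 3.26e-14 in edgeR's test). Cbr2, a carbonyl reductase, rose and was at 70.5 to 74.0 CPM with Torin1 and 35.3 to 37.0 CPM with RapaLink-1, against 28.9 to 31.1 CPM with DMSO, and the 95% interval of RapaLink-1 over Torin1 was -1.07 to -0.93 on the log2 scale (adjusted p = 1.14e-63 in edgeR's test).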
